A study of Mus musculus with 4 samples.

Results

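Serpins are a superfamily of protease inhibitors, and 6 of their genes were followed here in T cells of the brain's borders: Serpina3g, Serpina3f, Serpinb1a, Serpinb6a, Serpinb6b and Serpinb9. They are 6 of the 61 serpin genes and of the 31053 genes listed in the files. The members were chosen by name, with the difference between young and aged mice in these same libraries already known, so every value of that difference is given below as a description. T cells were sorted from the meninges, the membranes around the brain, and from the choroid plexus, which makes the cerebrospinal fluid, of young (10 weeks) and aged (18 months) female C57BL/6 mice that had received no treatment. Cells of 5 mice were pooled into 1 library for each age and tissue, which left 4 libraries with no replicate. Each interval below is therefore a 95% exact Poisson or Clopper-Pearson interval that covers counting error only, and no difference could be set against the spread between mice.

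A serpin exposes a loop that a protease cuts, and the cut traps the protease in a complex that cannot turn over. The clade A3 genes of the mouse are a large local family, of which Serpina3g (Spi2A) is known to inhibit cysteine cathepsins such as cathepsin B and to be induced by interferon-γ and NF-κB, also in memory CD8 T cells. Serpina3f is its neighbour and close paralog. The clade B genes encode serpins that stay inside the cell: Serpinb9 inhibits granzyme B, Serpinb6b inhibits granzyme A, Serpinb6a is known to inhibit cathepsin G, and Serpinb1a inhibits the neutrophil proteases elastase, cathepsin G and proteinase 3 and is known from T cells that make interleukin 17. Cytotoxic T cells carry granzymes and cathepsins in their granules, and inhibitors in the cytosol are held to protect a cell from what leaks out of them.

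The genes lie in 2 places in the mouse genome (GRCm38, GENCODE vM21). Serpina3f (chr12:104214544-104221129) and Serpina3g (chr12:104236245-104241939) are transcribed from the plus strand with 15.1 kb between them. The clade B genes lie on chromosome 13 within 1161 kb, as Serpinb1a (chr13:32842092-32851185, minus strand), Serpinb6b (chr13:32965209-32979067, plus strand), Serpinb9 (chr13:33003250-33017957, plus strand) and Serpinb6a (chr13:33917918-34002794, minus strand). Serpinb6a overlaps genes on the opposite strand, among them Ripk1 (chr13:34002363-34037147). The transcripts of Serpina3g and Serpina3f were 88.8% identical, and 6.36% of the 90-base windows of Serpina3g and 4.49% of those of Serpina3f occurred in another gene of the family, which rose to 15.4% and 8.2% in the first 500 bases, the end that this chemistry reads. Counts of these 2 genes are uncertain to that extent. No such window of the clade B members occurred in another gene, although Serpinb6a and Serpinb6b were 81.5% identical.

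The bases before the start of 3 members are shown because the genes described first below, Serpina3g and Serpinb6a, and the neighbour Serpina3f each hold, near at least 1 RefSeq start, the interferon-γ-activated site (GAS), spelled TTCNNNGAA, which reads the same on both strands. Capitals mark the motif in the 150 bases upstream of the RefSeq start (GRCm38.p6, on the gene's strand), at chr12:104235997-104236146, chr12:104214394-104214543 and, for Serpinb6a on the minus strand, chr13:34002795-34002944.
Serpina3g: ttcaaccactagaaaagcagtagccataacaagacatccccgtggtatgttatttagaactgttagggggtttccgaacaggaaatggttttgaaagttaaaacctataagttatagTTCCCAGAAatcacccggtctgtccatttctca
Serpina3f: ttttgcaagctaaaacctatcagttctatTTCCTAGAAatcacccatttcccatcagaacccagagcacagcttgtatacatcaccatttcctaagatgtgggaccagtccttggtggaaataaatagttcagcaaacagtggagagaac
Serpinb6a: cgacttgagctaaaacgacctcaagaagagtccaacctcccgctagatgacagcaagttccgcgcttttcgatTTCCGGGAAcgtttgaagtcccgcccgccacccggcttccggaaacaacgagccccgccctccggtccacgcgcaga

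The motif began at position -33 in Serpina3g, at -121 in Serpina3f and at -77 in Serpinb6a, counted from the start. In Serpinb6a another match began at position 20 after the start, outside the printed bases. RefSeq gives a further start for this gene, and its promoter (chr13:33936034-33936333) held no GAS motif. The printed bases of Serpinb6a also lie within Ripk1, on the opposite strand. Since the motif reads the same on both strands, the match there cannot be assigned to either gene. The motif occurred in 8.30% of the 32851 RefSeq promoters of the same length (250 bases before to 50 after the start), and was not in those of Serpinb6b and Serpinb9. A 2nd motif, GAAANNGAA, a pair of half-sites for interferon regulatory factors, was searched on both strands and was found in 8.56% of promoters. It was in those of Serpina3f, Serpinb6a and Serpinb9, overlapping the GAS motif in the first of these and in the printed promoter of Serpinb6a. Promoters of 5 of the 6 members were in the table used, and Serpinb1a was not matched. A match of letters is a description and says nothing of whether a factor bound there.

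After filters on genes and mitochondrial reads, 605 to 1408 T cells per library held a Cd3 UMI (unique molecular identifier, 1 per captured RNA molecule), with a median of 2313 to 3198 UMIs per cell. The libraries shared at most 3 barcodes. Each T cell was placed by its own UMIs of Cd4, Cd8a and Cd8b1. CD4 T cells numbered 254 in young meninges, 160 in young choroid plexus, 362 in aged meninges and 230 in aged choroid plexus, CD8 T cells 254, 160, 281 and 473, and cells with UMIs of neither 481, 269, 735 and 358 in the same order. The neither cells made up 32.7 to 52.2% of T cells and are a mixture, since a shallow CD4 or CD8 T cell can lack these UMIs. They are not a sorted type, since the paper sorted CD4 and CD8 T cells. By the rule of size given below, 0.226 to 0.617% of genes in each direction differed between neither and CD4 T cells of a library. Against CD8 T cells it was 0.662 to 1.66%. How many of them were missed CD4 or CD8 T cells was not tested. Levels are given as CPM, the UMIs of a gene per 1000000 UMIs of the summed cells of a profile, and a profile is 1 cell type in 1 library. Neutrophil genes were at 0 in 11 of 12 profiles, whereas B cell genes had a UMI in 14.6 to 51.2% of cells, macrophage genes summed to 0 to 193 CPM (6 of 7 detected in the profile at 193 CPM), and erythroid genes reached 483 CPM in the meninges against at most 4.03 CPM in the choroid plexus. Gamma-delta T cell genes had a UMI in 3.94% of CD8 T cells in young meninges and 5% in young choroid plexus. In the aged libraries it was 18.9 and 32.8%. These shares are of cells before thinning to a fixed number of UMIs. Before thinning, 4 of the 5 listed genes were detected in each aged CD8 profile, all but Trdv4. Trdc, the constant chain that defines these cells, was thus among them. After thinning, Trdc had no UMI in the 274 and 466 CD8 T cells of aged meninges and choroid plexus. Natural killer cell genes summed to 34.1 and 61.5 CPM in young and 98.3 and 77.2 CPM in aged CD8 T cells of the meninges and choroid plexus. The part of free RNA from other cells in the serpin levels was not tested beyond the alternatives given with the results.

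Serpina3g was far higher in aged than in young T cells of both tissues and of all 3 types. In CD8 T cells it stood at 15.1 CPM (8.65 to 24.6) in young meninges, 11.0 CPM (4.44 to 22.7) in young choroid plexus, 193 CPM (166 to 224) in aged meninges and 133 CPM (116 to 151) in aged choroid plexus. In CD4 T cells the 4 values were 16.9 (9.47 to 27.9), 10.1 (3.27 to 23.5), 97.8 (79.5 to 119) and 91.4 CPM (70.7 to 116). In the neither cells they were 17.9 (11.8 to 26.1), 11.2 (5.1 to 21.2), 129 (113 to 147) and 87.2 CPM (69.8 to 108). No young profile overlapped an aged one. On the log2(CPM + 10) scale, used for every log2 ratio here and which understates changes of low genes, aged exceeded young by 3.02 in CD8, 2.0 in CD4 and 2.32 in neither cells of the meninges, and by 2.76, 2.34 and 2.2 in those of the choroid plexus. In cells without a UMI of the gamma-delta and natural killer genes, a choice made after seeing the data, the ratios of CD8, CD4 and neither cells were 3.21, 1.90 and 2.12 (meninges) and 2.61, 2.70 and 2.05 (choroid plexus).

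More cells carried the transcript, and not only a few cells with many copies. Serpina3g UMIs were found in 11 of 254 young and 106 of 281 aged CD8 T cells of the meninges, and in 6 of 160 and 154 of 473 CD8 T cells of the choroid plexus. The highest count in 1 cell was 9 UMIs, found in aged meninges, in neither cells of aged choroid plexus and in neither cells of young meninges, where that cell held 33.3% of the 27 UMIs. Without the top cell of each profile the log2 ratios were 2.17 to 3.12 in the meninges and 2.34 to 2.96 in the choroid plexus. Over all T cells the share with a UMI was 2.98% (2.02 to 4.23%) in young and 22.5% (20.4 to 24.8%) in aged meninges, and 2.64% (1.52 to 4.26%) and 24.8% (22.2 to 27.4%) in the choroid plexus. Median depth was 3198 and 2313 UMIs in young and aged meninges and 2978 and 2839 in the choroid plexus, so that the aged cells were the shallower ones. In the Cd3-negative cells of the aged libraries, which should include few T cells, 1 of 28 cells at a median of 1480 UMIs and 1 of 7 cells at 1212 UMIs had a Serpina3g UMI, too few to set a background share.

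Serpinb6a was also higher in aged T cells of all 3 types. In CD4 T cells it stood at 35.0 CPM (23.8 to 49.7) in young meninges, 24.2 CPM (12.5 to 42.2) in young choroid plexus, 95.8 CPM (77.7 to 117) in aged meninges and 114 CPM (90.3 to 141) in aged choroid plexus. In the neither cells the values were 26.6 (19 to 36.2), 23.6 (14.2 to 36.8), 84.3 (71.2 to 99.1) and 76.2 CPM (60.0 to 95.3). CD8 T cells gave 35.0 (24.6 to 48.2), 37.8 (24.2 to 56.3), 64.1 (48.7 to 82.8) and 81.8 CPM (68.9 to 96.4). Young and aged intervals were apart in every type of both tissues. The share of all genes with intervals apart between the ages was not computed, for this or any other member. The log2 ratios were 1.23 in CD4, 1.37 in neither and 0.72 in CD8 T cells of the meninges, and 1.86, 1.36 and 0.94 in those of the choroid plexus. In aged choroid plexus, 1 CD4 T cell held 10 of the 82 UMIs, and without the top cell of each profile the ratio there was 1.77.

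Serpinb9 and Serpinb6b, the inhibitors of granzyme B and granzyme A, were low in every profile. Serpinb9 ranged from 7.44 CPM (2.73 to 16.2) in neither cells of young choroid plexus to 27.7 CPM (18.4 to 40.0) in CD4 T cells of aged meninges. Its 6 young values lay between 7.44 and 14.2 CPM and its 6 aged values between 17 and 27.7 CPM. The intervals of young and aged met in 5 of the 6 pairs and were apart in neither cells of the meninges, at 9.29 (5.08 to 15.6) and 22.5 CPM (16 to 30.8), and the log2 ratios were 0.50 to 0.82. Serpinb6b ranged from 6.04 CPM (1.25 to 17.6) in CD4 T cells of young choroid plexus to 25.4 CPM (16.1 to 38.1) in CD8 T cells of aged meninges. Its log2 ratio of aged over young was -0.19 in neither cells of the meninges and 0.17 to 0.74 in the other 5 pairs, all with overlapping intervals.

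Serpina3f and Serpinb1a were rare. Serpina3f was at 0 to 6.64 CPM in the young and 7.73 to 13.3 CPM in the aged profiles, with at most 23 UMIs in a profile. CD8 T cells of young choroid plexus had 0 UMIs of it, with an interval up to 5.81 CPM. Serpinb1a was nearly absent from CD8 T cells, with 2 UMIs (1.89 CPM) in young meninges, 0 in young choroid plexus (interval up to 5.81 CPM), 1 (1.10 CPM) in aged meninges and 9 (5.19 CPM, 2.37 to 9.84) in aged choroid plexus. In the neither cells of the choroid plexus it had 1 UMI (1.24 CPM, 0.031 to 6.91) in the young and 20 UMIs (20.04 CPM, 12.2 to 31.0) in the aged library, a log2 ratio of 1.42, whereas in those of the meninges it was at 5.97 (2.73 to 11.3) and 6.35 CPM (3.17 to 11.4). In CD4 T cells it had 1 UMI in young and 12 in aged meninges, and 0 (interval up to 7.43 CPM) in young and 12 in aged choroid plexus.

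**Figure D1:**
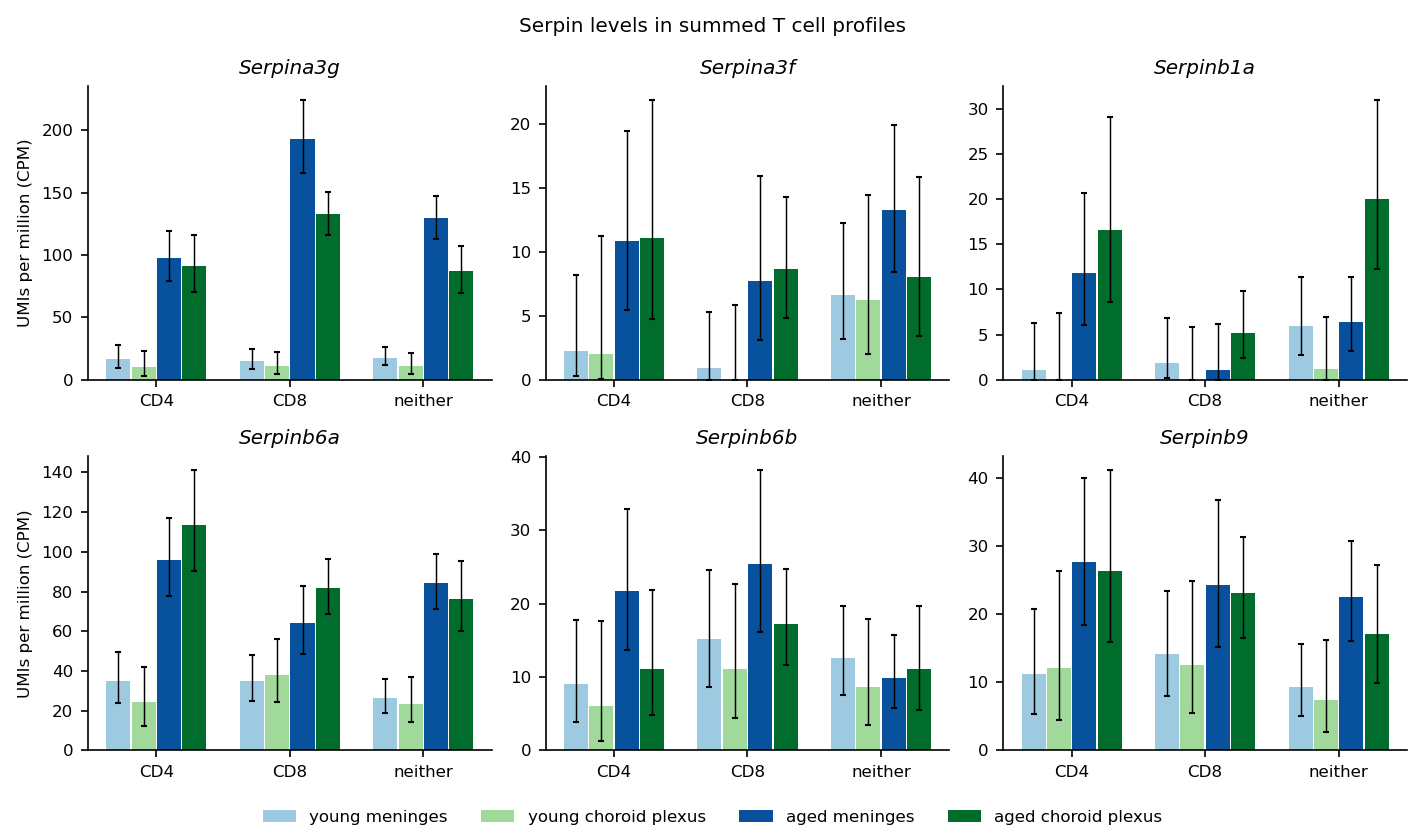
Level of each serpin (CPM, vertical axes with a scale of their own) in CD4, CD8 and neither T cells of the 4 libraries, with bars for the summed profile and whiskers for the 95% Poisson interval, which covers counting error only. Serpina3g reached 193 CPM in CD8 T cells of aged meninges against 15.1 CPM in young meninges, and Serpinb6a reached 114 CPM in CD4 T cells of aged choroid plexus.

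A rule of size set these values beside all genes: a log2 ratio of 1 or more and no fewer than 20 UMIs in the higher profile. In CD4 T cells, 2 of the 6 members (Serpina3g and Serpinb6a) were past it in the meninges, where 4.23% of all genes tested were higher in the aged library by the same rule, and 2 in the choroid plexus, where 7.27% were. In CD8 T cells, Serpina3g alone was past it in both tissues, beside 3.20% of meningeal and 2.46% of choroid plexus genes. In neither cells it was 2 members in the meninges (3.44% of genes) and 3 in the choroid plexus (4.62% of genes), with Serpinb1a as the 3rd. No member was past the rule in the lower direction, where 0.872 to 1.92% of all genes were past it in these pairs. Between 2 and 4 of the 6 members had the 20 UMIs in a given pair, so the others could not pass. These counts rest on the contrast by which the members were chosen, and nothing is read from them. Scaling by TMM shifted aged over young by -0.07 to -0.16 (log2) for all genes, and gave the same counts of members.

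**Figure D2:**
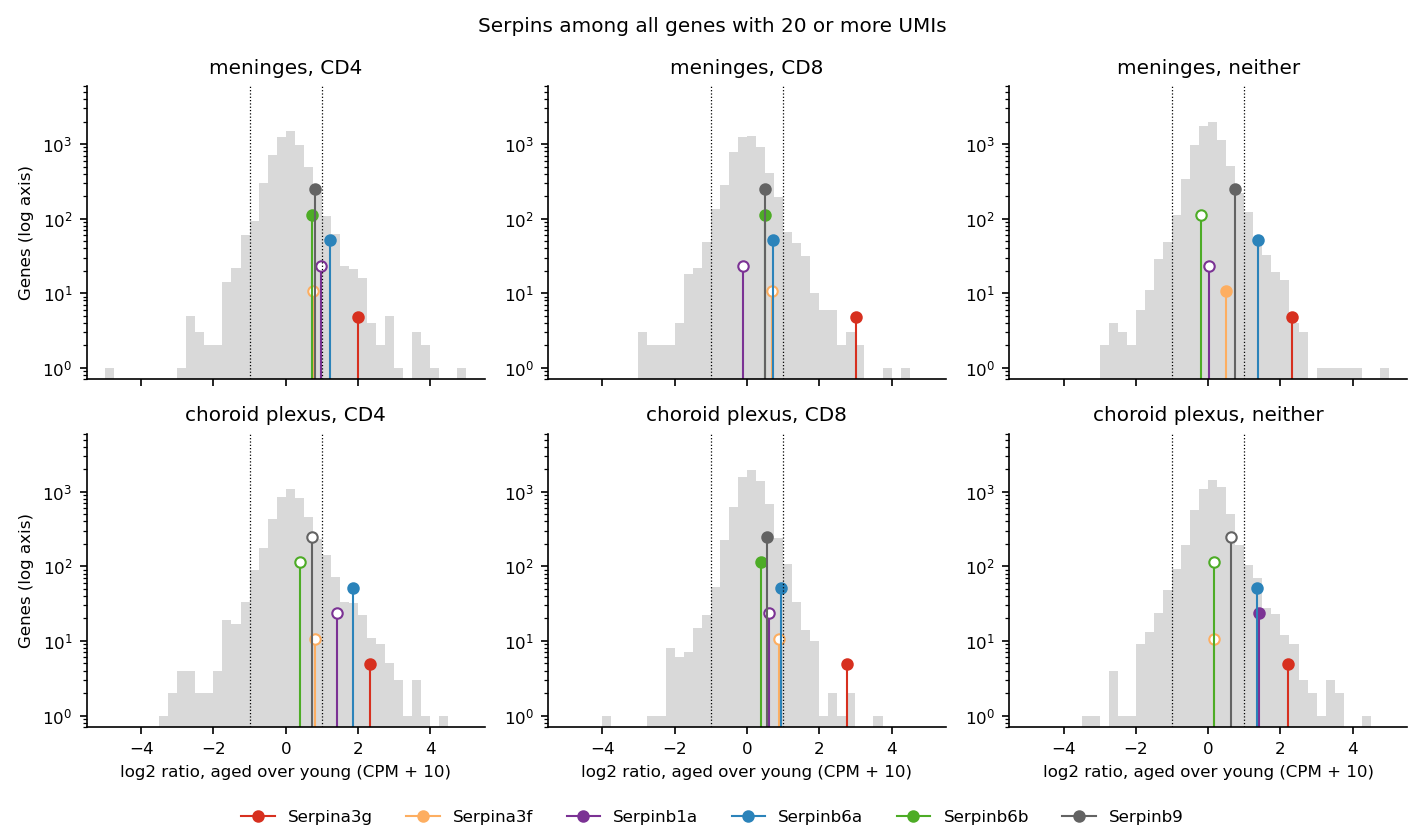
Distribution of the log2 ratio of aged over young (CPM + 10, horizontal axis) for all genes with 20 or more UMIs in the higher profile (grey bars in steps of 0.25, number of genes on a log axis), one panel for each tissue and T cell type. Coloured points mark the serpins at heights without meaning, open where the member had under 20 UMIs, dotted lines the 2-fold limits, and Serpina3g lay past the upper limit in all 6 panels, at 2.0 to 3.02.

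The young and aged libraries also differed in which T cells they held. Ccr7, the homing receptor of naïve and central memory T cells, had a UMI in 35.6% of T cells in young meninges and 28.4% in young choroid plexus, but in 5.04% and 4.01% in the aged libraries (each cell thinned to 1000 UMIs). A lower share of such cells and a change within cells cannot be told apart in the summed profiles. The cells were also split by Ccr7, although a cell with no Ccr7 UMI among 1000 can still be of that kind, so that the negative cells of the young libraries may hold many of them. Serpina3g was lower in Ccr7-positive than in Ccr7-negative T cells of every library. The positive cells of young meninges had 5 UMIs, or 4.12 CPM (1.34 to 9.61), and the negative ones were at 23.1 CPM (17.3 to 30.2). In young choroid plexus the positive cells had 0 UMIs, with an interval up to 7.13 CPM, against 17.3 CPM (11.3 to 25.3). In aged meninges the values were 38.5 (16.6 to 75.9) and 139 CPM (127 to 152), and in aged choroid plexus 44.0 (17.7 to 90.6) and 115 CPM (104 to 127).

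The 2 intervals were apart in each library, and Serpina3g was the one member for which this was so: 1 of 4 measured in young meninges, of 3 in young choroid plexus, and of 6 in either aged library. By the same rule 5.59 and 4.20% of all genes were lower in Ccr7-positive cells of young meninges and choroid plexus, and 4.70 and 3.08% in the aged ones. How many naïve cells remained among the negative ones was not tested. With cells that had no Ccr7 UMI before thinning, a choice made after seeing the data, the log2 ratio of aged over young for Serpina3g was 1.36 in CD4, 2.38 in CD8 and 1.49 in neither cells of the meninges and 1.56, 2.41 and 1.62 in those of the choroid plexus. The Serpinb6a intervals of Ccr7-positive and negative cells overlapped in each library, and its ratios among these cells were 1.23, 0.21 and 1.27 for meningeal CD4, CD8 and neither cells and 1.73, 0.63 and 1.45 for those of the choroid plexus. The smaller ratio in CD8 T cells of the meninges went from 0.72 to 0.21. The ratio turned from 0.48 to -0.05 for Serpina3f and from 0.03 to -0.25 for Serpinb1a in neither cells of the meninges, and from 0.39 to -0.23 for Serpinb6b in CD4 T cells of the choroid plexus, at few UMIs.

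**Figure D3:**
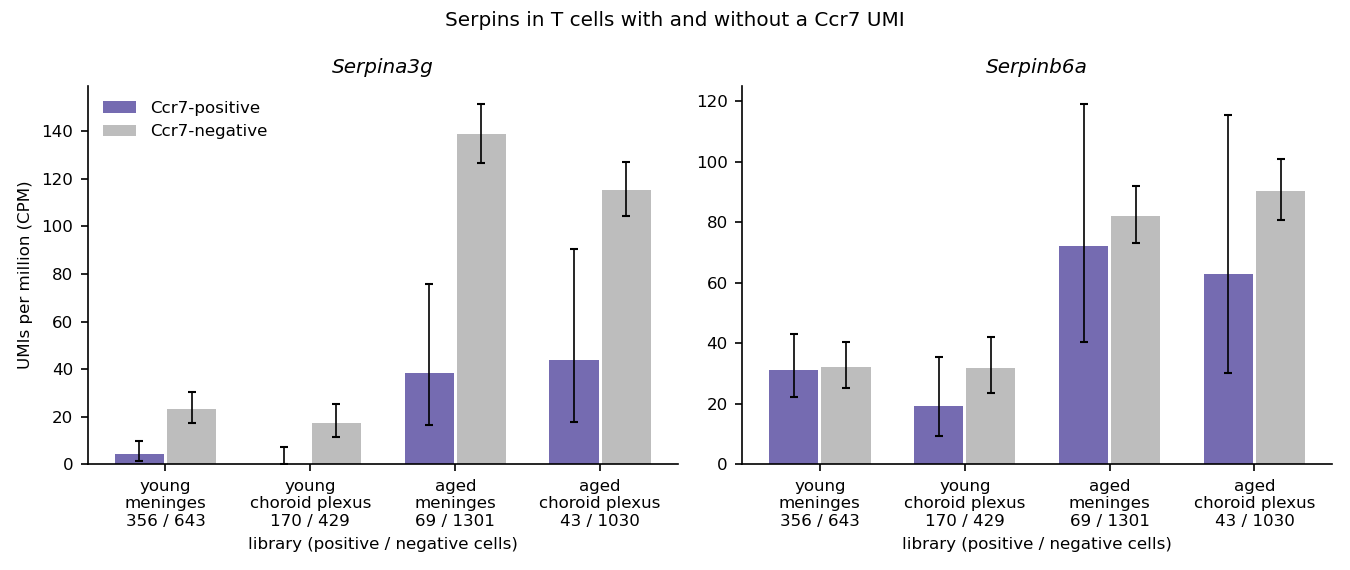
Level of Serpina3g and Serpinb6a (CPM) in all T cells with and without a Ccr7 UMI in the 4 libraries, with 95% Poisson intervals and the number of positive and negative cells under each pair. Serpina3g was lower in the Ccr7-positive cells of each library (38.5 against 139 CPM in aged meninges), while the Serpinb6a intervals overlapped.

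Between CD8 and CD4 T cells of 1 library, and between the tissues, no member passed the rule of size, which needs 20 UMIs and damps the ratios of low genes. None of the 6 members passed the rule of size for CD8 over CD4 T cells, in either direction. Of all genes, 2.81% did in young meninges, 3.54% in young choroid plexus, 4.51% in aged meninges and 3.35% in aged choroid plexus. Serpinb6a alone had the 20 UMIs in each young library, and 4 members had them in each aged one. The others could not pass. Among members with 20 UMIs the nearest was Serpina3g in aged meninges, at 193 CPM in CD8 against 97.8 CPM in CD4 T cells, a log2 ratio of 0.92 with intervals that did not overlap. In aged choroid plexus its ratio was 0.49. Serpinb1a, with 1 UMI in CD8 and 12 in CD4 T cells of aged meninges, had a ratio of -0.98 at 1.10 and 11.9 CPM. Serpinb6a went the other way in the aged libraries, at -0.51 (meninges) and -0.43 (choroid plexus), with overlapping intervals. CD8 T cells and neither cells of the aged libraries were apart in plain CPM for Serpina3g and 2 low members. Serpina3g was lower in neither cells, at 129 against 193 CPM in the meninges (ratio -0.55). In the choroid plexus it was at 87.2 against 133 CPM (-0.55). Serpinb1a in aged choroid plexus was at 20.04 CPM in neither and 5.19 CPM in CD8 T cells (ratio 0.98), and Serpinb6b in aged meninges at 9.81 CPM (5.72 to 15.7) in neither and 25.4 CPM in CD8 T cells (-0.84). No member passed the rule of size for neither over CD8 T cells in these libraries. In aged meninges 1.66% of all genes were higher and 0.662% lower by that rule. In aged choroid plexus 1.40% were higher and 1.12% lower. The share of all genes with intervals apart was not computed for these pairs, nor for CD8 against CD4 T cells. Between choroid plexus and meninges no member passed the rule of size either. Beside that 0, the share of all genes was 3.75, 2.72 and 2.07% in young CD4, CD8 and neither cells and 2.26, 1.38 and 1.49% in the aged ones. In the same order, 1, 1 and 2 members had the 20 UMIs in the young and 4, 4 and 5 in the aged pairs. Serpina3g was lower in the aged choroid plexus than in the aged meninges by log2 ratios of -0.51 in CD8 and -0.52 in neither cells, with intervals apart, and Serpinb1a was higher in neither cells, by 0.88 (20.04 against 6.35 CPM, intervals apart). The share of all genes with intervals apart between the tissues was not computed, so nothing is read from these members being apart.

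Granzymes, the proteases that 2 of these serpins are known to inhibit, differed between the ages. Gzmk and Gzmb were higher and Gzma lower in CD8 T cells of the aged libraries. In young and aged CD8 T cells of the meninges Gzmk was at 101 and 507 CPM, and it was at 77.2 and 335 CPM in those of the choroid plexus (log2 ratios 2.22 and 1.98), and had the highest ratio of the granule genes in both. Gzma had the lowest, at 302 and 230 CPM in the meninges (-0.38) and 178 and 65.1 CPM in the choroid plexus (-1.32). Few cells carried it: its 319 and 208 UMIs in young and aged meninges lay in 10 of 254 and 18 of 281 cells, so that the share of cells with a UMI was higher in the aged library (3.94 and 6.41%), and in the choroid plexus 113 UMIs lay in 7 of 160 young and 113 in 17 of 473 aged cells. In neither cells Gzma was higher in the aged libraries, by 1.19 (meninges) and 1.17 (choroid plexus), as were Gzmb (2.40 and 1.05) and Gzmk (3.70 and 3.56). Gzmb in CD8 T cells was at 40.7 and 151 CPM in the meninges and at 89.8 and 134 CPM in the choroid plexus. With cells thinned to 1000 UMIs, at least 1 UMI of these 3 granzymes was found in 6.30% of CD8 T cells in young meninges, 13.4% in young choroid plexus, 43.8% in aged meninges and 36.5% in aged choroid plexus. In CD4 T cells the shares were 3.95, 0.629, 11.8 and 11.4%, and in neither cells 1.27, 1.5, 17.2 and 13.3%. Most of the aged granzyme-positive cells were positive for Gzmk, which had a UMI in 36.5% of CD8 T cells in aged meninges and 28.1% in aged choroid plexus.

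Serpina3g was higher in granzyme-positive than in granzyme-negative cells in 3 of the 6 aged comparisons, judged by counting intervals. In neither cells of aged meninges Serpina3g was at 204 CPM (156 to 261) in the 122 granzyme-positive cells and at 112 CPM (94.8 to 130) in the 588 negative ones. In neither cells of aged choroid plexus it was at 213 CPM (139 to 312) in 46 positive and 70.5 CPM (53.9 to 90.6) in 299 negative cells. Among CD8 T cells of aged choroid plexus the values were 175 (143 to 213) in 170 positive and 109 CPM (91.1 to 130) in 296 negative cells. Among those of aged meninges, however, they were nearly equal, at 195 (150 to 247) in 120 positive and 189 CPM (155 to 229) in 154 negative cells. The negative cells were called after thinning and include cells with granzyme UMIs. Before thinning, 190 CD8 T cells of aged meninges and 283 of aged choroid plexus had one. In CD4 T cells the intervals overlapped in both tissues, at 111 and 96.6 CPM in the meninges and 155 and 84.6 CPM in the choroid plexus.

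Serpina3g was thus the 1 member of 4, 3 and 4 measured whose intervals were apart in neither cells of the meninges, neither cells of the choroid plexus and CD8 T cells of the choroid plexus, where 1.61, 1.76 and 2.13% of all genes were higher in granzyme-positive cells by the same rule. In CD8 T cells of the meninges (2.23% of genes), CD4 T cells of the meninges (1.62%) and CD4 T cells of the choroid plexus (1.01%) none of the 4, 4 and 2 members measured was. The shares of thinned cells with a Serpina3g UMI gave another order. Granzyme-positive minus negative was 9.34 points (0.316 to 23.5, Newcombe interval) in CD4 T cells of the meninges, where the CPM intervals overlapped, and -0.68 points (-7.91 to 16.1) in those of the choroid plexus. It was 8.51 points (2.12 to 16.6) in neither cells of the meninges, 11.9 points (2.26 to 25.7) in those of the choroid plexus, 3.39 points (-2.49 to 10.0) in CD8 T cells of the choroid plexus and -2.44 points (-10.5 to 6.12) in those of the meninges. In the last, the sign turned with the draw of the thinning and was 13.5 points without thinning.

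In the young libraries few cells could be compared, and none of the values that follow reached 20 UMIs. Of the 7 Serpina3g UMIs in CD8 T cells of young choroid plexus, 5 lay in the 21 granzyme-positive cells, at 67.5 CPM (21.9 to 158) against 3.59 CPM (0.435 to 13.0) in 136 negative cells. The 16 positive CD8 T cells of young meninges held 3 of 16 UMIs, at 48.6 (10.0 to 142) against 13.1 CPM (6.96 to 22.4).

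Taken 1 granzyme at a time, Gzmb stood apart in aged meninges, a choice made from the values themselves. The share of all genes beside each split is given only for the direction seen. Cells were split by 1 draw of the thinning, and these levels were not computed with another. Of the 28 Gzmb-positive CD8 T cells, 1 had a Serpina3g UMI, a level of 12.8 CPM (0.324 to 71.2), against 103 of 246 Gzmb-negative cells at 208 CPM (178 to 242). Serpina3g was the 1 member of 4 measured with intervals apart, beside 1.83% of genes lower by the same rule. In the neither cells of that library the order was the reverse: 12 Gzmb-positive cells had 16 UMIs at 473 CPM (271 to 769), with a UMI in 6 cells, against 121 CPM (105 to 139) in 698 negative cells, beside 1.98% of genes higher. Aged choroid plexus differed from this, since the 45 Gzmb-positive CD8 T cells were at 158 CPM (100.3 to 237) and the 421 negative ones at 129 CPM (112 to 148), which overlap, whereas its 6 Gzmb-positive neither cells had 10 UMIs at 538 CPM (258 to 989) against 79.5 CPM (62.7 to 99.3), where Serpina3g was the 1 member of 3 apart and 2.32% of genes were. The Gzmb-positive CD8 T cells of aged meninges also differed in other genes, which were chosen after their values were seen. Gzma stood at 2096 CPM (1787 to 2442) in them, from 9 of the 28 cells, against 53.6 CPM (38.9 to 71.9). Klrg1, a receptor of terminal effector T cells, was at 179 (97.8 to 300.2) against 28.0 CPM (17.8 to 42.0), S1pr5, which guides cells back to blood, at 89.5 (36.0 to 184) against 6.09 CPM (1.98 to 14.2), and Klf2 at 920.2 (720.0 to 1159) against 281 CPM (246 to 320). Some of this was also found where Serpina3g was not lower, and some was not. In Gzmb-positive CD8 T cells of aged choroid plexus Gzma was at 454 (351 to 578) against 29.7 CPM (21.8 to 39.5) and Klrg1 at 61.9 (28.3 to 118) against 18.9 CPM (12.8 to 27.0), and in the Gzmb-positive neither cells of aged meninges S1pr5 was at 88.7 (18.3 to 259) against 3.57 CPM (1.31 to 7.78), from 3 UMIs in 1 cell. Klf2 intervals overlapped in both, at 165 (106 to 246) against 143 CPM (125 to 163) in the CD8 T cells of aged choroid plexus. In the neither cells of aged meninges they were 266 (122 to 505) against 442 CPM (411 to 475). Those Gzmb-positive neither cells had 0 Gzma UMIs, with an interval up to 109 CPM. How these genes relate to the level of Serpina3g was not tested. The interferon-stimulated gene Isg15 was higher in the Gzmb-positive cells of aged meninges of both types. In neither cells it was at 1893 CPM (1458 to 2418), from 5 of the 12 cells, against 214 CPM (193 to 238). In CD8 T cells it was at 422 (290 to 592) against 213 CPM (183 to 247). This was also found in Gzmb-positive CD8 T cells of aged choroid plexus, at 213 (145 to 303) against 77.0 CPM (64.0 to 92.0).

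Serpinb9 was compared in the same way. In CD8 T cells of aged meninges it was at 35.4 CPM (18.3 to 61.8) in granzyme-positive and 17.9 CPM (8.57 to 32.9) in negative cells, and in those of aged choroid plexus at 32.4 (19.5 to 50.5) and 18.4 CPM (11.4 to 28.1). It was higher in the positive cells in 5 of the 6 aged comparisons, all with overlapping intervals. As a share of thinned cells the difference was 4.17 points (0.767 to 9.38) in CD8 T cells of aged meninges, and in the other 5 comparisons it was -3.94 to 2.68 points with intervals that held 0. Without thinning, which leaves differences of depth in the shares, granzyme-positive cells had a Serpinb9 UMI more often in each of the 6, for example 18 of 190 against 2 of 91 CD8 T cells of aged meninges. Of its 15 UMIs in CD8 T cells of young meninges, 6 lay in the 16 granzyme-positive cells, at 97.2 (35.7 to 212) against 9.05 CPM (4.14 to 17.2). Serpinb6b, at 20.6 and 28.6 CPM in granzyme-positive and negative CD8 T cells of aged meninges and 17 and 17.5 CPM in those of aged choroid plexus, also had overlapping intervals. Over all T cells Serpinb6a was at 67.5 (50.7 to 88.1) in granzyme-positive and 85.4 CPM (75.2 to 96.7) in negative cells of aged meninges, and at 76.6 (59.0 to 97.9) and 92.9 CPM (81.9 to 105) in those of aged choroid plexus. These splits follow mostly Gzmk: of the 120 granzyme-positive CD8 T cells of aged meninges, 100 had a Gzmk UMI and 28 a Gzmb UMI. Levels of Serpinb9 by Gzmb alone and of Serpinb6b by Gzma alone are not given here.

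**Figure D4:**
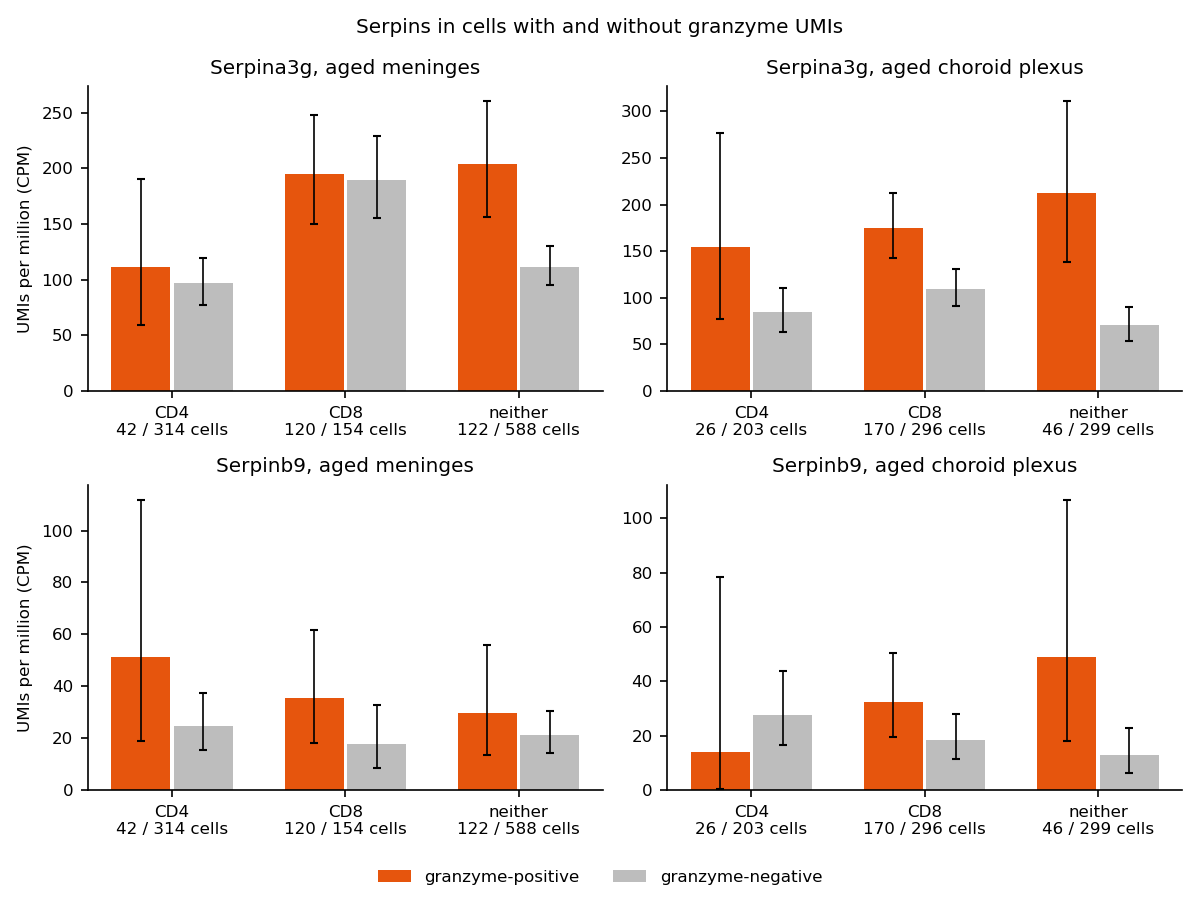
Level of Serpina3g and Serpinb9 (CPM) in cells with and without a UMI of Gzma, Gzmb or Gzmk after thinning, by T cell type in the 2 aged libraries, with 95% Poisson intervals and the number of positive and negative cells under each pair. Serpina3g was higher in granzyme-positive neither cells of both tissues (204 and 213 CPM) and nearly equal in CD8 T cells of aged meninges (195 and 189 CPM). The groups depend on the draw of the thinning, and negative cells can hold granzyme UMIs that the draw left out.

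Interferon-stimulated genes marked cells with more of some members in 1 of the aged libraries. T cells with at least 3 UMIs over the 20 listed genes made up 49.0% of aged meninges and 38.9% of aged choroid plexus. In aged choroid plexus Serpina3g was at 137 CPM (119 to 158) in them against 96.7 CPM (84.1 to 111), and Serpinb9 at 32.6 (23.9 to 43.5) against 15.4 CPM (10.6 to 21.5). These were 2 of the 6 members, beside 5.22% of all genes higher by the same rule. In aged meninges none of 6 had intervals apart (4.59% of genes did), with Serpina3g at 148 (131 to 167) and 120 CPM (105 to 137). Serpina3f was at 20.9 (10.4 to 37.4) in such CD8 T cells of aged choroid plexus against 3.33 CPM (0.906 to 8.54), from 11 and 4 UMIs, fewer than the 20 on which genes were compared by this rule.

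In aged choroid plexus, where Serpinb1a was most often found, Gzmk-positive T cells held 0 of its 41 UMIs, with an interval up to 5.59 CPM, against 13.8 CPM (9.89 to 18.7) in the other T cells. It was the 1 of 6 members lower there with intervals apart, as were 2.36% of genes.

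The members overlapped within cells in part. Without thinning, 19 of 34 Serpina3f-positive T cells in aged meninges and 15 of 29 in aged choroid plexus also had a Serpina3g UMI, against 22.5 and 24.8% of all T cells there. In the young libraries it was 7 of 8 and 2 of 5. The part that the likeness of the 2 transcripts has in these counts was not tested. Also without thinning, which leaves differences of depth in the shares, Serpinb1a-positive cells had a Serpinb6a UMI in 12 of 21 cases in aged meninges. In aged choroid plexus it was 10 of 34, where 18.5 and 20.7% of all T cells had one. After thinning it was 4 of 12 and 1 of 11, against 123 of 1370 and 87 of 1073 T cells. A Serpina3g UMI was less frequent in Serpinb1a-positive cells than in all T cells, at 2 of 21 and 5 of 34 without thinning. Of thinned cells, 4.87 to 7.91% in 5 of the young profiles and 3.14% in CD4 T cells of young choroid plexus held a UMI of at least 1 member, against 21.1 to 26.3% in the aged profiles.

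The proteases and other inhibitors around the members were given by lists. No other serpin was measurable: 40 of the other 55 had no UMI in any profile and 15 had 1 to 19 UMIs in their highest. By the rule of size 3.20% of all genes in CD8 T cells of the meninges and 2.46% of those of the choroid plexus were higher in the aged library, the background for the counts of list genes that follow. Lower by that rule were 1.83 and 0.872%. Of the 11 cathepsin genes 7 had enough UMIs in CD8 T cells, of which 0 in the meninges passed the rule of size, and 1 in the choroid plexus, which was higher, with a median log2 ratio of 0.50 and 0.57. The highest and lowest were Ctsd (156 and 281 CPM in young and aged, 0.81) and Ctsz (28.4 and 25.4 CPM, -0.12) in the meninges, and Ctsz (11.0 and 39.8 CPM, 1.24) and Ctsa (59.9 and 51.3 CPM, -0.19) in the choroid plexus. Ctsb, the protease that Serpina3g is known to inhibit, named after its values were seen, was at 161 and 298 CPM in CD4 and 90.8 and 154 CPM in CD8 T cells of young and aged meninges, and at 111 and 253 CPM and 70.9 and 120 CPM in those of the choroid plexus. Ctsg, the target of Serpinb6a and Serpinb1a, had 0 UMIs in every profile, and so had Elane.

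Of the cystatins, inhibitors of cysteine cathepsins, 3 of 4 had enough UMIs in CD8 T cells, and 1 passed the rule in the meninges against 0 in the choroid plexus. Cst7, which acts in the lysosomes of cytotoxic cells, was at 128 and 305 CPM in young and aged meninges (1.19) and 134 and 255 CPM in the choroid plexus (0.88), and the lowest were Cst3 (0.18) and Cstb (0.33). Of the granule genes 8 of 9 were measured, with 4 higher and 0 lower in the meninges and 1 higher and 1 lower in the choroid plexus. In neither cells 4 of 7 granule genes (meninges) and 5 of 6 (choroid plexus) were higher (3.44 and 4.62% of all genes), and in CD4 T cells 2 of 5 and 2 of 4 (4.23 and 7.27%). Of the interferon-stimulated genes 5 of 19 measured were past it in the meninges (median 0.59) and 1 of 18 in the choroid plexus (median 0.18), all higher, from Ifit1 (22.7 and 68.5 CPM, 1.26) down to Irf1 (125 and 122 CPM, -0.04) in the meninges and from Isg20 (45.7 and 126 CPM, 1.29) down to Ifit1 (56.7 and 28.8 CPM, -0.78) in the choroid plexus.

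Genes whose levels moved most like a member over the 12 profiles were sought among 7787 genes, by Pearson's r as a description, since profiles of 1 library share their depth and most of the pattern is the 2 ages. For Serpina3g they were Psmb8 (0.98), a subunit of the immunoproteasome, Pfdn5 (0.97) and Cnrip1 (0.97). For Serpinb6a they were Lag3 (0.98), an inhibitory receptor, Srrm2 (0.98) and Stk32c (0.97), and for Serpinb9 Hip1r (0.96), H2-Q6 (0.96) and Pglyrp1 (0.95). For the rarer members they were Tmem176a (0.96), Il1rl1 (0.95) and Smim11 (0.95) with Serpinb1a, Tram1 (0.94), 1190002N15Rik (0.92) and Vps28 (0.92) with Serpina3f, and Mier1 (0.88), Fam204a (0.87) and Ube2g2 (0.85) with Serpinb6b.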

How the data were processed

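T cells from 4 pooled libraries were measured with a droplet 5′ kit. The authors deposited filtered matrices of UMI counts per gene and cell; the submitters' processing notes name Cell Ranger 5.1.0, STAR and mm10, whereas the matrix headers name Cell Ranger 3.1.0. Cells with 200 to 7000 genes and at most 5% mitochondrial counts were kept. Scrublet (scanpy 1.11.5) marked 16 and 22 doublets in young meninges and choroid plexus and 0 and 5 in the aged libraries, so that doublets may remain, most of all in aged meninges. T cells needed a Cd3 UMI, and a Cd4 or a Cd8a or Cd8b1 UMI set their type. Cells with both were left out of the types. Counts were summed per type and library and scaled to CPM, and 10 CPM was added for log2 ratios. With 1 library per group no test was made. Shares came from cells thinned to 1000 UMIs (seed 0), and cells below that were left out. Positive and negative cells were set by thinned counts, and their CPM by all counts of those cells, without the genes that set them. 31011 gene identifiers matched GENCODE vM21.

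The 6 members and the lists of granule genes, cathepsins, cystatins and interferon-stimulated genes were chosen with earlier results of these data known. By a rule, the text names the members, Gzma, Gzmb and Gzmk, the highest and lowest gene of each list in CD8 T cells and the 3 genes most like each member. Simulated counts with known folds were used to check that rule's code. Alternatives covered the filter, doublets, depth, scaling (TMM, edgeR 4.0.16), the added CPM, the limits and the gate. One planned grouping of T cells by state is not reported here.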

Additional observations from a re-analysis of the deposited data

How the results depend on the processing

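With 1 library per condition no result has a test, and what limits them is the number of UMIs: 78 to 224 for 4 of the members over all profiles. The log2 ratios of aged over young stayed within a counting interval in 395 of 432 alternatives, and those of CD8 over CD4 in 247 of 264. That interval was computed on the ratio without the added 10 CPM, so it is not an interval of the reported value. For rare members it was wide, for example -6.66 to 3.49 for Serpinb1a in CD8 T cells of the meninges (aged over young). For such members these counts say little about stability. The granzyme differences stayed within their own Newcombe interval in 228 of 252. Serpina3g stayed above a ratio of 1 in every alternative but 1, a gate of 2 UMIs in CD4 T cells of the meninges, where it was 0.995. The number of members past the rule of size differed from the reported one in 22 of 84 alternatives, and the cause was not tested. In 9 of these it went from 2 to 3 or from 3 to 2, in neither cells of both tissues and CD4 T cells of the choroid plexus, among them Serpinb1a, which has exactly 20 UMIs and is lost at a minimum of 50 UMIs. The other 13 moved by more than 1.5 times. For CD4 T cells of the meninges it was 4 with 1 CPM added, 1 with 50 CPM added, 4 at 1.5-fold and 0 with the gate of 2 UMIs. For neither cells it was 1 in both tissues with 50 CPM added. For CD8 T cells of the meninges it was 2 at 1.5-fold, and for those of the choroid plexus it was 2 without the cell filter, with 1 CPM added, at 1.5-fold, with the gate of 2 UMIs and, added after seeing the data, in cells without B cell, macrophage and erythroid UMIs and in cells without gamma-delta and natural killer UMIs. In CD8 T cells of aged meninges the granzyme difference in the share with Serpina3g was 13.5 points without thinning and 6.42 points with another draw, and that with Serpinb9 was 0.46 points without the cell filter and -0.24 points in cells without B cell, macrophage and erythroid UMIs, against 4.17 points as reported here. In those of aged choroid plexus the difference for Serpinb9 was -0.60 points, 5.50 points without thinning and 3.44 points with cells thinned to 1500 UMIs.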
